A study of Mus musculus with 16 samples.

Results

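The acute phase transcripts described here are 10 genes, the serum amyloid A genes Saa1, Saa2, Saa3 and Saa4, the orosomucoid genes Orm1, Orm2 and Orm3, lipocalin 2 (Lcn2), haptoglobin (Hp) and Steap4. They were chosen by name, through the RefSeq symbol of the accession that each array probe carries, and are 10 of the 20284 symbols on the array and of the 25789 features tested. Each gene had 1 probe with 1 spot. Every value of the 10 genes was well above background, and 1 ctrl-inh spot of Orm3 was left out because the scanner marked it as an outlier.

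RNA came from 16 liver samples of male ApoE KO mice on a high-fat diet (HFD), 8 labelled miR-185-inh and 8 labelled ctrl-inh, with 1-colour Agilent arrays, 1 per sample. The miR-185-inh mice received lentivirus carrying an antisense inhibitor of the microRNA miR-185, and the ctrl-inh mice were treated with a control inhibitor that the labels do not describe further. Both groups share the ApoE KO genotype, which removes apolipoprotein E and leaves cholesterol-rich lipoproteins to accumulate, as well as the diet, the stated age of 8 weeks and liver collection after 8 weeks. The promoter of the vector and the liver cells it reached are not given in the sources used here. The study asked how miR-185 acts on bile acid metabolism through Cyp7a1 and FoxO1, and the acute phase genes lie outside that question. The labels number the samples without stating that each is a separate animal, so each p-value refers to the scatter of these samples, part of which may be technical. A label number is called a mouse below.

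Acute phase proteins are plasma proteins whose production in the liver changes during infection, injury and inflammation. Hepatocytes make most of them in response to interleukin 6 and interleukin 1, which act through STAT3, C/EBP factors and NF-κB. Serum amyloid A proteins travel on high-density lipoprotein, orosomucoids bind drugs and lipids in plasma, lipocalin 2 sequesters bacterial siderophores, haptoglobin captures free haemoglobin, and Steap4 is a metalloreductase of the cell membrane. Saa3 is known in mice as a serum amyloid A made also by macrophages and adipocytes, and Lcn2 is stored in neutrophil granules as well as made by hepatocytes.

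The stretches just before the gene starts are shown because paralogues with nearly the same upstream sequence can be read against their array values. RefSeq promoters of build GRCm38.p6 were at hand for 8 of the 10 genes. The 250 bases before the start are printed 5′ to 3′ on the gene's own strand for Saa1 (chr7:46742981-46743230 on the minus strand), Saa2 (chr7:46751583-46751832 on the plus strand), Saa3 (chr7:46715677-46715926 on the minus strand), Orm2 (chr4:63362199-63362448 on the plus strand), Orm3 (chr4:63355908-63356157 on the plus strand) and Lcn2 (chr2:32387740-32387989 on the minus strand). Capitals mark matches to a C/EBP-type motif, TTNNGNAA on either strand.
Saa1: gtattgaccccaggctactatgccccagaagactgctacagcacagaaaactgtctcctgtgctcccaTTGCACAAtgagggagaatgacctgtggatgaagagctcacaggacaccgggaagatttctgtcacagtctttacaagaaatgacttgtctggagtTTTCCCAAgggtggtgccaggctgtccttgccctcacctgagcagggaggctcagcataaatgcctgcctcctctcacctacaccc
Saa2: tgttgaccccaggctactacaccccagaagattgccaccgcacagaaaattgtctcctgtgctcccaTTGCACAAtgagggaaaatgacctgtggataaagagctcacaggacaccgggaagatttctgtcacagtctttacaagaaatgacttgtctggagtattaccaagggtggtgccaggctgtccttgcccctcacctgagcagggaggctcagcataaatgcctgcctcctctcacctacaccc
Saa3: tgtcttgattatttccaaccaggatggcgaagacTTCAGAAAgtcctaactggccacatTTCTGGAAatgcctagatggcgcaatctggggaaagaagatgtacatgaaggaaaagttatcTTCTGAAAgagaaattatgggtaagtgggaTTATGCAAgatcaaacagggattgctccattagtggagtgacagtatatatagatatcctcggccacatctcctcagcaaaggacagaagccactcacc
Orm2: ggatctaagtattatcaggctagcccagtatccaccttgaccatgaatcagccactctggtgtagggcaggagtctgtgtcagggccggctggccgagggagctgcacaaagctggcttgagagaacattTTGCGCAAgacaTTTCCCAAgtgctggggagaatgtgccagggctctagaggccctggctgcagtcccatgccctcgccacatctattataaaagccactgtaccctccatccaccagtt
Orm3: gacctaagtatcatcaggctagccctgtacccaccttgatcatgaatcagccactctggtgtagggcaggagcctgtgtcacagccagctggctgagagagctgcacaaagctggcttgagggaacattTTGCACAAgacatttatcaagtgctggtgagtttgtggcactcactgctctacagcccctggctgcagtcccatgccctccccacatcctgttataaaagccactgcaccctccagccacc
Lcn2: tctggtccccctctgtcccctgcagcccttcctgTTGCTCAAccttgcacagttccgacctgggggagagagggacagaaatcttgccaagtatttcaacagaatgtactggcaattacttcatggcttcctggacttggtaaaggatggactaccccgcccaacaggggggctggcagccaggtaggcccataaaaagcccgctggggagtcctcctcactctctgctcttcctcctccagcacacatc
The upstream stretches of Saa1 and Saa2 were identical at 238 of 251 aligned positions (94.8%), and those of Orm2 and Orm3 at 218 of 255 (85.5%). Saa1 and Saa3 shared 130 of 268 aligned positions (48.5%), and unrelated pairs such as Saa4 and Lcn2 (44.0%) or Saa2 and Lcn2 (53.2%) bracketed that value. The C/EBP-type motif occurred in the 300-base window of all 8 genes, against 40.7% of 32851 RefSeq promoters of that length. Saa3 held 4 matches, Saa1, Saa4, Orm2 and Steap4 held 2, and Saa2, Orm3 and Lcn2 held 1. A STAT-type motif (TTCNNNGAA, the same on both strands) was found only in Steap4 among the 8, with 8.30% of all promoters holding it. The κB consensus had 2 matches in Steap4 and none in the windows of the other 7 genes, against 4.51% of all promoters, and 1 match overlapped a C/EBP-type match. A match is a description of letters and says nothing on binding.

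Livers of both groups expressed the hepatocyte marker list, with 19 of its 20 genes well above background on all 16 arrays. The mean log2 level of that list ran from 4.61 to 4.96 in miR-185-inh livers and from 4.73 to 5.04 in ctrl-inh livers. Levels here and below are log2 of the processed signal minus the array's 75th percentile, so a positive difference means a higher signal in miR-185-inh livers. The Apoe probe read 4.15 in miR-185-inh and 3.87 in ctrl-inh livers, a log2 difference of 0.28 (adjusted p = 0.311, limma). Where that probe lies relative to the deleted part is not known, so it does not check the genotype. Between 60.7% and 67.1% of 59305 spots were well above background on miR-185-inh arrays, and between 58.7% and 74.8% on ctrl-inh arrays. All miR-185-inh arrays lay on slide 2 with scan 2 and all ctrl-inh arrays on slide 1 with scan 1, so a difference between groups and a difference between slides or scans cannot be told apart. The number of arrays limits the precision.

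A pair of livers stood apart for nearly the whole set. Mouse 9 of the miR-185-inh group had the highest value of its group for 9 of the 10 genes and the second highest for the other, Saa4. Mouse 12 of the ctrl-inh group was the highest of its group for 9 genes, with Saa3 as the exception. Mouse 7 was the lowest miR-185-inh liver for 9 genes, all but Steap4. In the ctrl-inh group the lowest value fell to mouse 2 for 4 genes, and to mice 1, 3, 8 and 11 for the others. Differences between the groups are therefore also given without mouse 9 and without mouse 12. Both livers were picked for their high values, so the direction of these changes was fixed in advance. Leaving out mouse 9 moves the differences down, and leaving out mouse 12 moves them up.

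**Figure D1:**
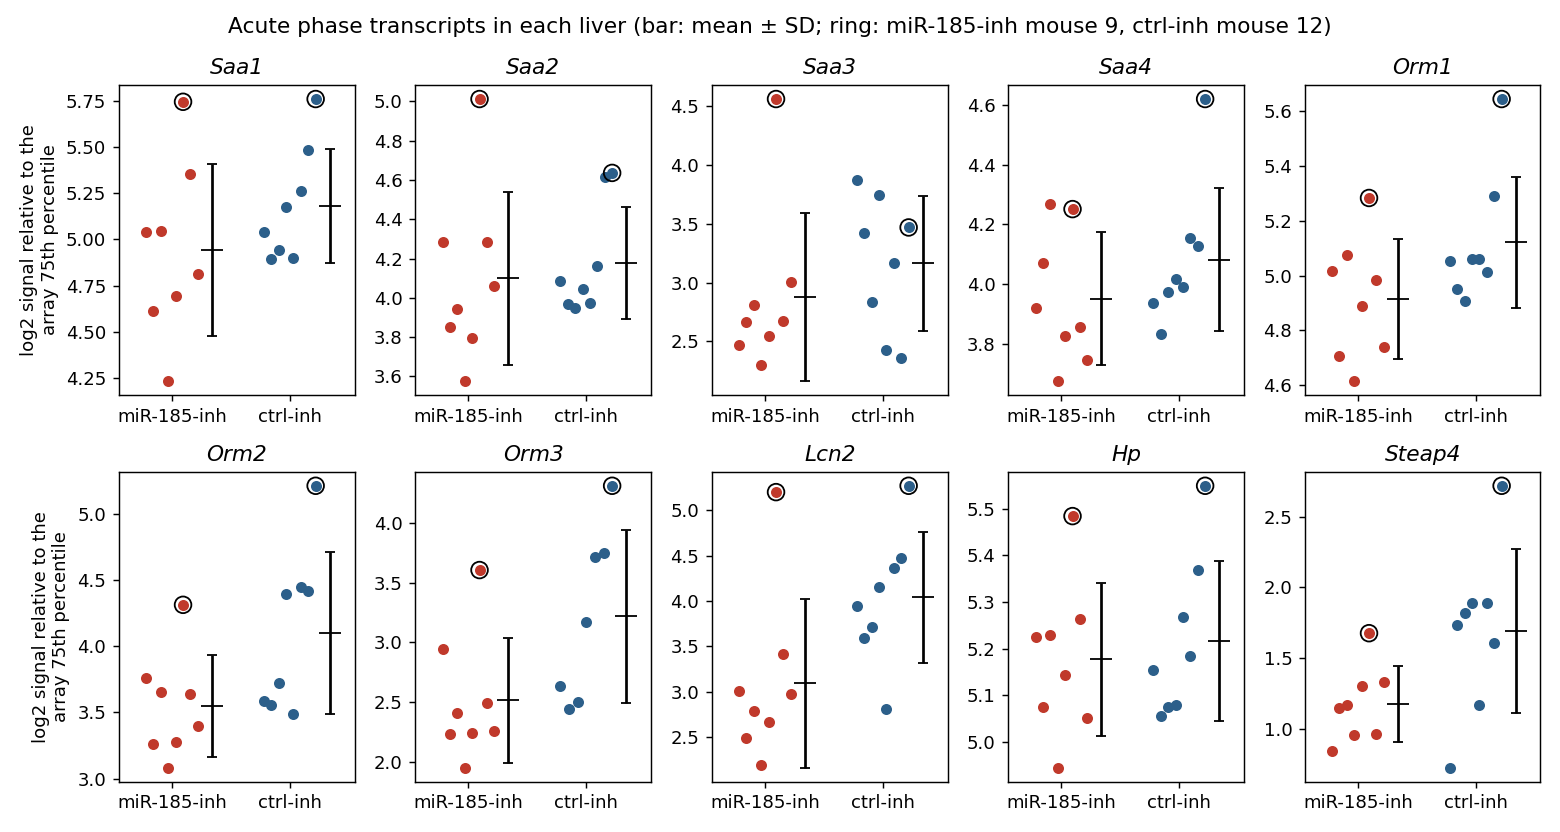
Log2 signal relative to the array's 75th percentile of the 10 acute phase genes in each liver, miR-185-inh left and ctrl-inh right, with the mean and SD beside the points. Ringed points are miR-185-inh mouse 9 and ctrl-inh mouse 12, and each panel has its own vertical axis. The groups overlap in all 10 panels.

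No acute phase gene of the 10 differed between the groups past the adjustment over all features. By limma with Benjamini-Hochberg adjustment, 0 of 10 had an adjusted p under 0.05, against 4.71% of the 25789 features in either direction and 3.47% in the lower direction. Lcn2, Steap4, Orm3 and Orm2, 4 of the 10, had an unadjusted p under 0.05, which 20.2% of all features also had. The exact permutation test of each gene singly gave an unadjusted p under 0.05 for 3 of the 10, Steap4, Lcn2 and Orm2. The median log2 difference of the 10 genes was -0.26, beside -0.033 over all features. Each of the 10 had a mean difference below 0, as 58.0% of all features did, but Hp turned to 0.031 with normexp background correction and to 0.0067 with quantile normalization.

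Lcn2 was the gene with the largest mean difference in the set. Its level ran from 2.19 to 5.20 with a median of 2.88 in miR-185-inh livers, and from 2.81 to 5.27 with a median of 4.05 in ctrl-inh livers. The ranges overlapped. In the miR-185-inh group 7 of 8 livers lay below the ctrl-inh mean and 4 lay below the lowest ctrl-inh liver, while mouse 9 lay near the top of the ctrl-inh range. The means were 3.09 ± 0.93 in miR-185-inh and 4.04 ± 0.72 in ctrl-inh livers (SD, n = 8 each), a log2 difference of -0.95 (SE 0.38) or a 1.93-fold lower level. That difference had adjusted p = 0.161 in limma, and the two-sided exact permutation test over 12870 splits gave p = 0.0395.

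Whether Lcn2 passed depended on 1 array. Without miR-185-inh mouse 9 the log2 difference was -1.25 (SE 0.28) with adjusted p = 0.0242 in limma, past the threshold. As mouse 9 was the highest liver of the lower group, leaving it out could only widen the difference. Without ctrl-inh mouse 12 it was -0.78 (SE 0.37), with adjusted p = 0.274. The 8 positions of a slide form 2 rows, and Lcn2 differed by -1.24 in row 1 alone (adjusted p = 0.0632) and by -0.66 in row 2 alone (adjusted p = 0.592).

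Steap4 came next to Lcn2 by limma. Its level ran from 0.84 to 1.68 with a median of 1.16 in miR-185-inh livers, and from 0.72 to 2.72 with a median of 1.78 in ctrl-inh livers. All 8 miR-185-inh livers lay below the ctrl-inh mean, yet none lay below the lowest ctrl-inh liver, mouse 1. The log2 difference was -0.52 (SE 0.21), with adjusted p = 0.166 in limma and p = 0.0339 in the exact permutation test. Without ctrl-inh mouse 1 it was -0.66 (SE 0.18) and passed the threshold in limma, with adjusted p = 0.0491. As mouse 1 was the lowest liver of the higher group, leaving it out could only widen the difference. Without ctrl-inh mouse 12 it was -0.37 (SE 0.17, adjusted p = 0.261), and within slide rows it was -0.51 in row 1 and -0.53 in row 2. The SD was 0.27 in the miR-185-inh group and 0.58 in the ctrl-inh group.

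The orosomucoids are plasma carrier proteins encoded by neighbouring genes on chromosome 4. Orm2 ran from 3.08 to 4.31 with a median of 3.52 in miR-185-inh livers, and from 3.49 to 5.21 with a median of 4.06 in ctrl-inh livers. The ranges overlapped, and 7 of 8 miR-185-inh livers lay below the ctrl-inh mean. Its log2 difference was -0.55 (SE 0.24), with adjusted p = 0.192 in limma and p = 0.0432 in the exact permutation test. Without miR-185-inh mouse 9 it was -0.66 (adjusted p = 0.115), and without ctrl-inh mouse 12 it was -0.40 (adjusted p = 0.310).

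Orm3 ran from 1.95 to 3.61 with a median of 2.33 in 8 miR-185-inh livers, and from 2.45 to 4.31 with a median of 3.17 in 7 ctrl-inh livers. Its ctrl-inh mouse 8 is the spot left out, and 5 of 8 miR-185-inh livers lay below the lowest remaining ctrl-inh liver. Among ctrl-inh livers mouse 8 was the lowest for 2 of the 9 other genes, Orm2 and Lcn2, with a median rank of 7. What its absence does to the Orm3 difference was not tested. The log2 difference was -0.70 (SE 0.30), with adjusted p = 0.189 in limma and p = 0.0507 in the exact permutation test over 6435 splits. Row 1 of the slides alone gave -0.30 (adjusted p = 0.503 in limma). Row 2 alone, where mouse 8 lay and only ctrl-inh mice 9, 11 and 12 remained, gave -1.28 (adjusted p = 0.0973 in limma). Without miR-185-inh mouse 9 it was -0.86 (adjusted p = 0.0917), and without ctrl-inh mouse 12 it was -0.52 (adjusted p = 0.335).

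Orm1 differed less. It ran from 4.62 to 5.28 with a median of 4.94 in miR-185-inh livers, and from 4.91 to 5.64 with a median of 5.06 in ctrl-inh livers. In the miR-185-inh group 4 livers lay below the lowest ctrl-inh value, but the means differed by only -0.21 (SE 0.11) on the log2 scale. That gave adjusted p = 0.314 in limma and p = 0.0890 in the exact permutation test. The Orm1 difference was -0.26 with miR-185-inh mouse 9 left out (adjusted p = 0.185), and -0.13 with ctrl-inh mouse 12 left out (adjusted p = 0.489). Whether the 3 orosomucoid probes read each other's transcripts was not tested, since probe sequences were not used here.

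The serum amyloid A genes lie together on chromosome 7. Saa1 and Saa2 are the classical inducible forms made by hepatocytes. Saa1 ran from 4.23 to 5.75 with a median of 4.93 in miR-185-inh livers, and from 4.90 to 5.76 with a median of 5.11 in ctrl-inh livers. The highest livers of the groups were nearly level, and 4 miR-185-inh livers lay below the lowest ctrl-inh liver. The log2 difference was -0.24 (SE 0.18), with adjusted p = 0.503 in limma and p = 0.246 in the exact permutation test. Leaving out miR-185-inh mouse 9 gave -0.36 (adjusted p = 0.233), and leaving out ctrl-inh mouse 12 gave -0.16 (adjusted p = 0.697).

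Saa2 showed a smaller difference than its neighbour. It ran from 3.58 to 5.01 with a median of 4.0 in miR-185-inh livers, and from 3.95 to 4.64 with a median of 4.06 in ctrl-inh livers. The ctrl-inh range lay wholly inside the miR-185-inh range. The log2 difference was -0.079 (SE 0.17), with adjusted p = 0.846 in limma and p = 0.684 in the exact permutation test. Saa2 differed by -0.21 when miR-185-inh mouse 9 was left out (adjusted p = 0.415), and by -0.013 when ctrl-inh mouse 12 was (adjusted p = 0.980). Whether the Saa1 and Saa2 probes share signal was not tested.

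Saa3, the form known in mice from macrophages and adipocytes, ran from 2.30 to 4.56 with a median of 2.67 in miR-185-inh livers, and from 2.36 to 3.88 with a median of 3.30 in ctrl-inh livers. All miR-185-inh livers but mouse 9 lay at or below 3.0, under 5 of the 8 ctrl-inh livers. The log2 difference was -0.29 (SE 0.30), with adjusted p = 0.641 in limma and p = 0.398 in the exact permutation test. Without miR-185-inh mouse 9 it was -0.53 (SE 0.21, adjusted p = 0.181), and without ctrl-inh mouse 12 it was -0.24 (adjusted p = 0.741). The sign depended on the slide row, with -0.91 in row 1 (adjusted p = 0.111) and 0.34 in row 2 (adjusted p = 0.711), and mouse 9 lay in row 2.

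Saa4, the constitutive serum amyloid A, ran from 3.68 to 4.27 with a median of 3.89 in miR-185-inh livers, and from 3.83 to 4.62 with a median of 4.01 in ctrl-inh livers. The difference was -0.13 (SE 0.11) on the log2 scale, with adjusted p = 0.561 in limma and p = 0.290 in the exact permutation test. With miR-185-inh mouse 9 left out it was -0.17 (adjusted p = 0.420), and with ctrl-inh mouse 12 left out -0.053 (adjusted p = 0.816). Hp, the haemoglobin scavenger, ran from 4.95 to 5.48 with a median of 5.18 in miR-185-inh livers, and from 5.06 to 5.55 with a median of 5.17 in ctrl-inh livers. The Hp ranges nearly coincided, and its log2 difference was -0.040 (SE 0.086, adjusted p = 0.842 in limma, exact permutation p = 0.645). The Hp difference with miR-185-inh mouse 9 left out was -0.084 (adjusted p = 0.612), and without ctrl-inh mouse 12 it was 0.0077 (adjusted p = 0.973).

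**Figure D2:**
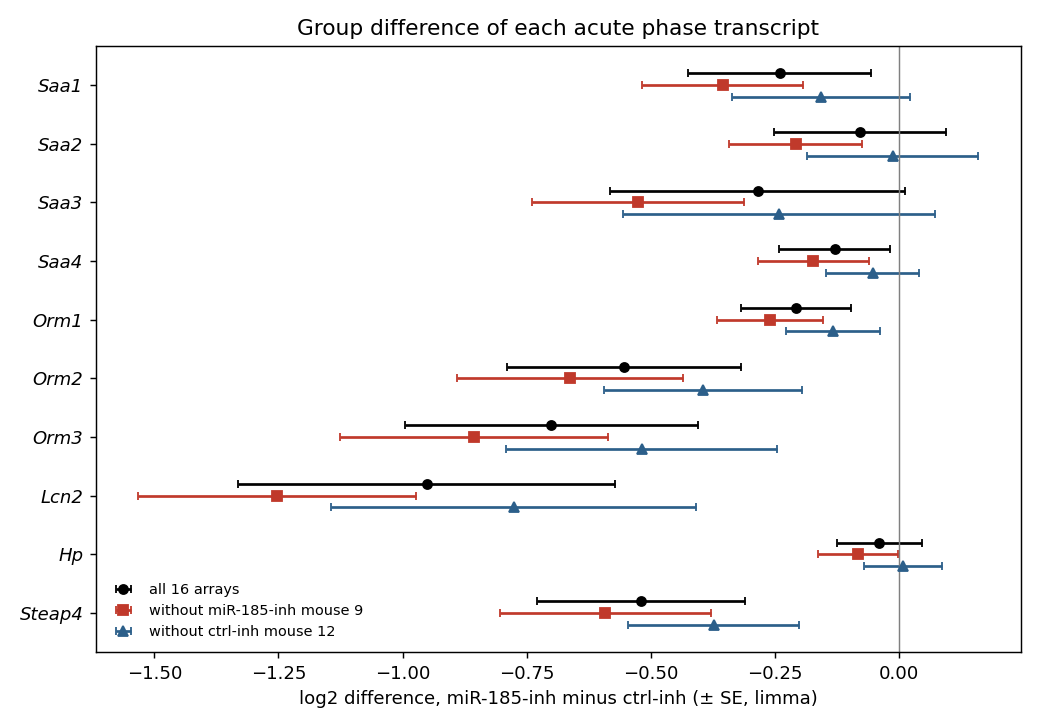
Log2 difference, miR-185-inh minus ctrl-inh, of each acute phase gene with its standard error from limma, for all 16 arrays (circles), without miR-185-inh mouse 9 (squares) and without ctrl-inh mouse 12 (triangles). Lcn2 lies farthest below 0 in all 3, at -0.95, -1.25 and -0.78, and the Hp bars include 0 with all 16 arrays.

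Across livers of 1 group most of the 10 genes went up and down together. The 45 pairs had a median Pearson r of 0.833 (range 0.425 to 0.972) over the 8 miR-185-inh livers and of 0.802 (range -0.257 to 0.964) over the 8 ctrl-inh livers. By exact permutation, 25 of the 45 pairs in miR-185-inh livers and 26 of the 45 in ctrl-inh livers had a p under 0.05 after adjustment over all 90 relations. By Spearman rho 32 of the 90 did, against 51 by Pearson r. The relation leaned on extreme livers: without the 2 arrays farthest from the median of the first gene of each pair the median r was 0.426 in miR-185-inh and 0.494 in ctrl-inh livers. In ctrl-inh livers Orm3 ran from 2.45 to 3.17 in slide row 1 and from 3.715 to 4.31 in row 2. Hp ran from 5.06 to 5.155 in row 1 and from 5.185 to 5.55 in row 2, and the rows overlapped for the other genes. The permutations exchanged arrays across rows, so shifts between rows can enter these r values, and their part was not tested. Each slide row held 4 arrays of a group, too few for r within rows.

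Saa1 and Lcn2, on different chromosomes, were tightly related in both groups. Their Pearson r was 0.906 in miR-185-inh and 0.917 in ctrl-inh livers (adjusted exact permutation p = 0.00351 in each), with Spearman rho of 0.929 and 0.976 (adjusted exact permutation p = 0.0155 and 0.00893). Without the 2 farthest arrays r was 0.890 and 0.837. Saa1 and Orm2 had r of 0.947 in miR-185-inh and 0.947 in ctrl-inh livers, with 0.839 and 0.929 without the 2 farthest arrays. The paralogue pairs were close too, with r of 0.935 in miR-185-inh and 0.945 in ctrl-inh livers for Saa1 with Saa2, and of 0.965 and 0.961 for Orm2 with Orm3. The upstream stretches of these paralogue pairs were 94.8% and 85.5% identical, while those of Saa1 and Orm2, with r of 0.947 in both groups, were 49.4% identical. The part of upstream sequence in r was not tested.

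Saa3 and Steap4 went less with the set. In ctrl-inh livers the r of Saa3 with the other 9 genes ran from -0.257 to 0.321, and none passed adjustment. Saa3 there ran from 2.84 to 3.88 in slide row 1 and from 2.36 to 3.47 in row 2. Saa1 went the other way by row, from 4.90 to 5.17 in row 1 and from 4.90 to 5.76 in row 2. The part of slide row in the low r of Saa3 was not tested. In miR-185-inh livers it ran from 0.598 to 0.933 with 4 of 9 past adjustment, but without the 2 arrays farthest from the median of the first gene only 2 of the 9 values were above 0, Lcn2 at 0.0794 and Steap4 at 0.593. Saa3 in miR-185-inh livers thus rested on its extreme arrays, mouse 9 among them, and the difference in r between the groups was not tested. Steap4 passed adjustment with 1 gene in each group, Saa3 in miR-185-inh livers (r = 0.851, adjusted exact permutation p = 0.0170) and Orm2 in ctrl-inh livers (r = 0.799, adjusted exact permutation p = 0.0320). Saa4 passed with 0 of 9 genes in miR-185-inh livers and 7 of 9 in ctrl-inh livers by exact permutation of Pearson r, a contrast that was not tested itself.

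**Figure D3:**
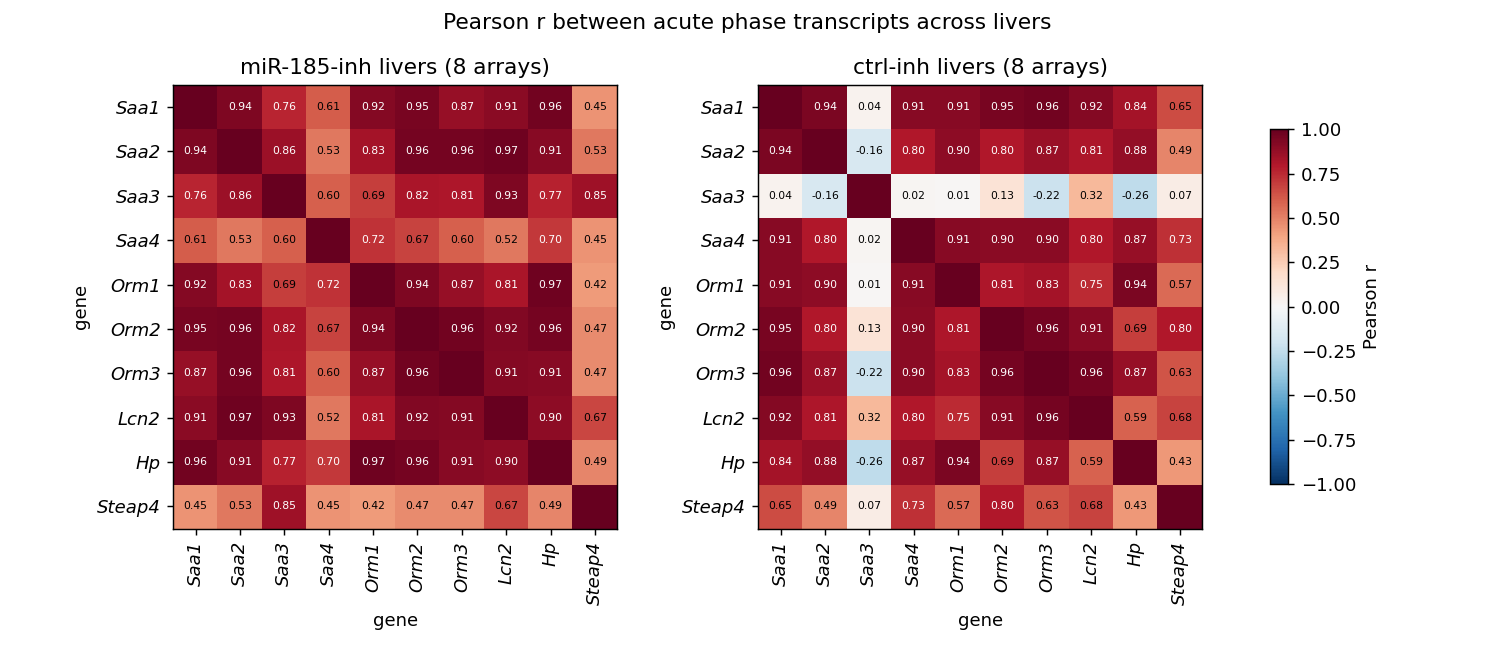
Pearson r between each pair of the 10 acute phase genes over the 8 miR-185-inh livers (left) and the 8 ctrl-inh livers (right), on a colour scale from -1 to 1, with Orm3 over 7 ctrl-inh arrays. The Saa3 row is pale in ctrl-inh livers, between -0.257 and 0.321, while the other genes are mostly dark.

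Marker genes of other liver cells were measured on the same arrays. In bulk liver, fewer cells of a type and less RNA per cell cannot be told apart. The 17 neutrophil markers tested averaged between -3.40 and -1.80 on the log2 scale in miR-185-inh livers and between -2.68 and -0.776 in ctrl-inh livers, and all 17 had a difference below 0, as 58.0% of all features did, with a median of -0.83. Row 1 of the slides alone gave a median of -1.11, and row 2 alone -0.46. Of the 17 markers 10 were well above background on all 16 arrays. Ltf, Mpo, Camp, Ctsg and Padi4 were so on fewer miR-185-inh than ctrl-inh arrays, and Elane and Mmp9 on more. With the filter set to all 16 arrays the median was -0.82, with 1 marker called. Over all 16 arrays 2 of the 17 were called lower, against 3.47% of all features. Ngp, a neutrophil granule protein, differed by -1.22 (adjusted p = 0.0429). Ltf, the granule protein lactoferrin, was well above background on 3 of 8 miR-185-inh arrays and on all 8 ctrl-inh arrays, so it passed the filter on dim probes only through the ctrl-inh group. Its fitted difference of -1.97 (adjusted p = 0.0241) is taken against a group mostly at background, and came to -1.22 with normexp. Within slide rows neither gene passed, with adjusted p in rows 1 and 2 of 0.278 and 0.116 for Ngp and of 0.259 and 0.0749 for Ltf. Ngp missed the threshold with normexp (-0.82, adjusted p = 0.0691) and with quantile normalization (-1.11, adjusted p = 0.0877). Ngp also missed it, at adjusted p of 0.0501 to 0.0790, when any 1 array was left out other than those of ctrl-inh mice 1 and 8 and miR-185-inh mouse 1. Mouse 9 had the highest neutrophil list level of the miR-185-inh livers (-1.80) and the highest Kupffer cell and macrophage list level (1.99). Mouse 12 was second highest of the ctrl-inh livers for the neutrophil list (-0.803). Without miR-185-inh mouse 9, without which Lcn2 passed as well, 5 neutrophil markers were called in limma, beside 923 of 25789 features in that fit. They were Ctsg, S100a8, Mmp8 and Cxcr2, at log2 differences from -1.52 to -0.52, and Ltf with the limit just given, all named after their values were seen. Ctsg, at -1.52, was well above background on 6 of 8 miR-185-inh and all 8 ctrl-inh arrays. Since mouse 9 had the highest neutrophil list level of its group, leaving it out lowers that group's mean list level by construction.

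Like every other gene of the set, Lcn2 had a positive r with the neutrophil markers within both groups that did not pass adjustment. Its Pearson r with the mean z-score of the 17 markers was 0.785 in miR-185-inh livers (adjusted exact permutation p = 0.195, Spearman rho 0.714) and 0.837 in ctrl-inh livers (adjusted exact permutation p = 0.171, rho 0.786). Without the 2 farthest arrays r was 0.659 and 0.803. Orm2 gave 0.772 in miR-185-inh and 0.849 in ctrl-inh livers, with the same adjusted exact permutation p of 0.195 and 0.171. The relation was thus not particular to Lcn2. In miR-185-inh livers r was higher for Orm1 (0.825) and Hp (0.792) than for Lcn2, and lowest for Saa4 (0.275). In ctrl-inh livers r was higher for Orm2 than for Lcn2, followed by Orm3 (0.815, 7 arrays) and Steap4 (0.800), and lowest for Saa3 (0.298).

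Saa3 had a positive r with the 21 Kupffer cell and macrophage markers in ctrl-inh livers that did not pass adjustment, at 0.851 (adjusted exact permutation p = 0.171, rho 0.786), and at 0.927 without the 2 farthest arrays. The macrophage score of these livers ran from 0.19 to 0.87 in slide row 1 and from -0.98 to 0.15 in row 2. Saa3 ran from 2.84 to 3.88 in row 1 and from 2.36 to 3.47 in row 2. Inside row 1 both measures ranked the mice in the same order, 1, 4, 2 and 3 from high to low. Inside row 2 mouse 12 was the highest for both, while the order of the others differed. The part of slide row in the ctrl-inh r was not tested. In miR-185-inh livers that r was 0.272 (adjusted exact permutation p = 0.677). The macrophage list averaged between 1.07 and 1.99 in miR-185-inh livers and between 1.42 and 2.22 in ctrl-inh livers. In limma 0 of its 21 genes passed adjustment and 1 had an unadjusted p under 0.05, against 4.71% and 20.2% of all features. Mpeg1 and Msr1, with the smallest p of the list, differed by -0.27 and -0.30 (adjusted p = 0.194 and 0.250 in limma). All 21 had a difference below 0, as 58.0% of all features did, with a median of -0.16 beside -0.033 over all features. By slide row that median came to -0.41 (row 1) and 0.15 (row 2), the same signs by row as the Saa3 differences of -0.91 and 0.34. The lymphocyte list had the same signs by row too, with medians of -0.64 and 0.41. In all, 80 relations of the 10 genes with 3 marker lists and the share of spots above background were computed, of which 16 had an unadjusted exact permutation p under 0.05 and 0 had an adjusted one, by Pearson r or by Spearman rho. The part of these cells in the levels of Lcn2 and Saa3 was not tested.

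**Figure D4:**
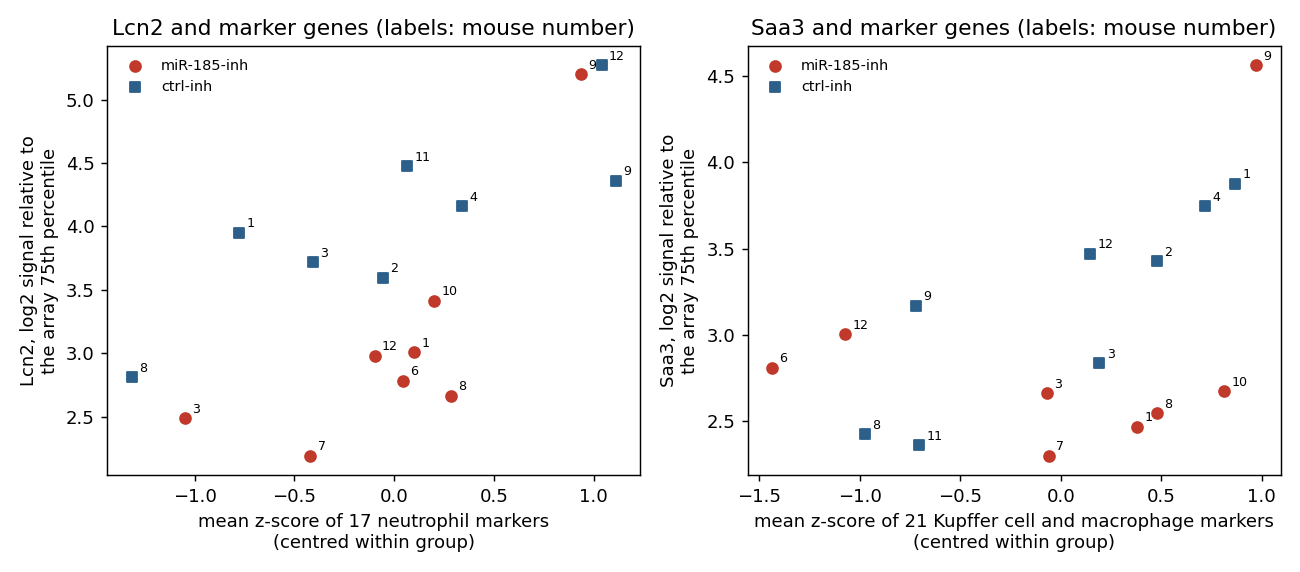
Lcn2 against the mean z-score of 17 neutrophil markers (left) and Saa3 against that of 21 Kupffer cell and macrophage markers (right), 1 point per liver, with circles for miR-185-inh, squares for ctrl-inh and the mouse number beside each. Scores are centred within each group, so they show no group difference, and miR-185-inh mouse 9 is the highest circle in both plots.

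Other acute phase genes differed little between the groups. Of 36 other positive acute phase genes tested, 0 passed adjustment in limma, 4 had an unadjusted p under 0.05, and the median log2 difference was -0.12 with 27 below 0. Over all features 4.71% passed, 20.2% had an unadjusted p under 0.05 and 58.0% lay below 0, with a median of -0.033. Il1rn, the interleukin 1 receptor antagonist, differed by -0.71 (adjusted p = 0.0949), and Lbp, which hands lipopolysaccharide to CD14, by -0.40 (adjusted p = 0.130). Without miR-185-inh mouse 9 both passed in limma, Il1rn at -0.85 and Lbp at -0.50 (adjusted p = 0.0367 each). That liver was picked for its high levels of the acute phase set, so both calls follow a choice made on these data. Of 16 negative acute phase genes, whose plasma products decline in inflammation, 0 passed in limma, 2 had an unadjusted p under 0.05, and the median was -0.023. Apoa4, an apolipoprotein of lipid transport, differed by -0.36 (adjusted p = 0.0854), and Serpina6, the corticosteroid carrier, by 0.28 (adjusted p = 0.210).

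Upstream of the acute phase genes, 3 of 37 signalling genes and transcription factors passed adjustment in limma, against 4.71% of all features. Jak2, a kinase that carries cytokine receptor signals to STAT proteins, averaged 0.36 in miR-185-inh and -0.11 in ctrl-inh livers and rose by 0.46 on the log2 scale (adjusted p = 0.0306). Irak3, a brake on Toll-like receptor signalling, averaged -3.12 in miR-185-inh and -2.35 in ctrl-inh livers and fell by 0.77 (adjusted p = 0.0252). Irak4, the kinase that starts signalling from interleukin 1 and Toll-like receptors, averaged -0.99 in miR-185-inh and -0.63 in ctrl-inh livers, a log2 difference of -0.36 (adjusted p = 0.0273). Each passed under normexp and quantile normalization too, and none passed within slide row 1 alone, where 0 of all features passed (4609 at an unadjusted p under 0.05). Jak2 differed by 0.25 in row 1 alone (adjusted p = 0.497) and by 0.67 in row 2 alone, where it passed (adjusted p = 0.0275). Irak3 and Irak4 missed the threshold in row 2 as well (adjusted p = 0.274 and 0.320), and Irak4 missed the threshold with the mean of its probes (-0.33, adjusted p = 0.0616). Without miR-185-inh mouse 6 all 3 missed the threshold, with adjusted p of 0.0602 for Jak2, 0.0502 for Irak3 and 0.0532 for Irak4. Irak4 also missed it without miR-185-inh mouse 7 (adjusted p = 0.0528). Jak2 missed it, at adjusted p of 0.0504 to 0.0638, without any 1 of miR-185-inh mice 6, 7, 8, 9, 10 and 12 or ctrl-inh mice 3, 8, 11 and 12, and in a fit that took array position into account (adjusted p = 0.0527).

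Of the cytokines, Il6, Tnf, Osm and Lif did not pass the filter on dim probes, while Il1b, Il1a and Il22 were well above background on all 16 arrays and Il11 on 6 of 8 miR-185-inh and 7 of 8 ctrl-inh arrays. Il6, the main inducer of the hepatic acute phase, was well above background on 0 of 8 miR-185-inh arrays and 4 of 8 ctrl-inh arrays, and Tnf on 1 and 4, so neither was tested. Dim genes of other kinds leaned the same way, such as Fcnb (0 and 4) and Cd79a (0 and 3). No untested gene of the lists leaned the other way. The share of spots well above background reached 74.8% on ctrl-inh arrays and 67.1% on miR-185-inh arrays, and its part in these counts was not tested. Il1b averaged 0.45 in miR-185-inh and 0.66 in ctrl-inh livers, a log2 difference of -0.21 (adjusted p = 0.723, limma), and is named after its values were seen. Of 16 cytokine and receptor genes tested, 0 passed adjustment in limma, 3 had an unadjusted p under 0.05, and the median was -0.11. The shares over all features were 4.71% and 20.2%, with a median of -0.033. Ly96, the partner of the lipopolysaccharide receptor TLR4, differed by -0.20 (adjusted p = 0.0830), and Il6ra, the interleukin 6 receptor, by 0.29 (adjusted p = 0.112).

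Hepatocyte, adipocyte and lymphocyte lists gave no call by limma. The median log2 difference was -0.028 over 20 hepatocyte markers, where F9 and Apoa1 differed by -0.16 and -0.14 (adjusted p = 0.226 and 0.390). It was 0.031 over 8 adipocyte markers, where Adrb3 and Cfd differed by 0.28 and -0.44 (adjusted p = 0.443 and 0.785). Over 14 lymphocyte markers it was -0.10, where Klrb1c and Cd2 differed by -0.22 and -0.18 (adjusted p = 0.656 and 0.675), and it came to -0.64 in slide row 1 and 0.41 in row 2. At an unadjusted p under 0.05 there were 1 hepatocyte, 0 adipocyte and 0 lymphocyte genes, beside 20.2% of all features. Of all features 4.71% were called.

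**Figure D5:**
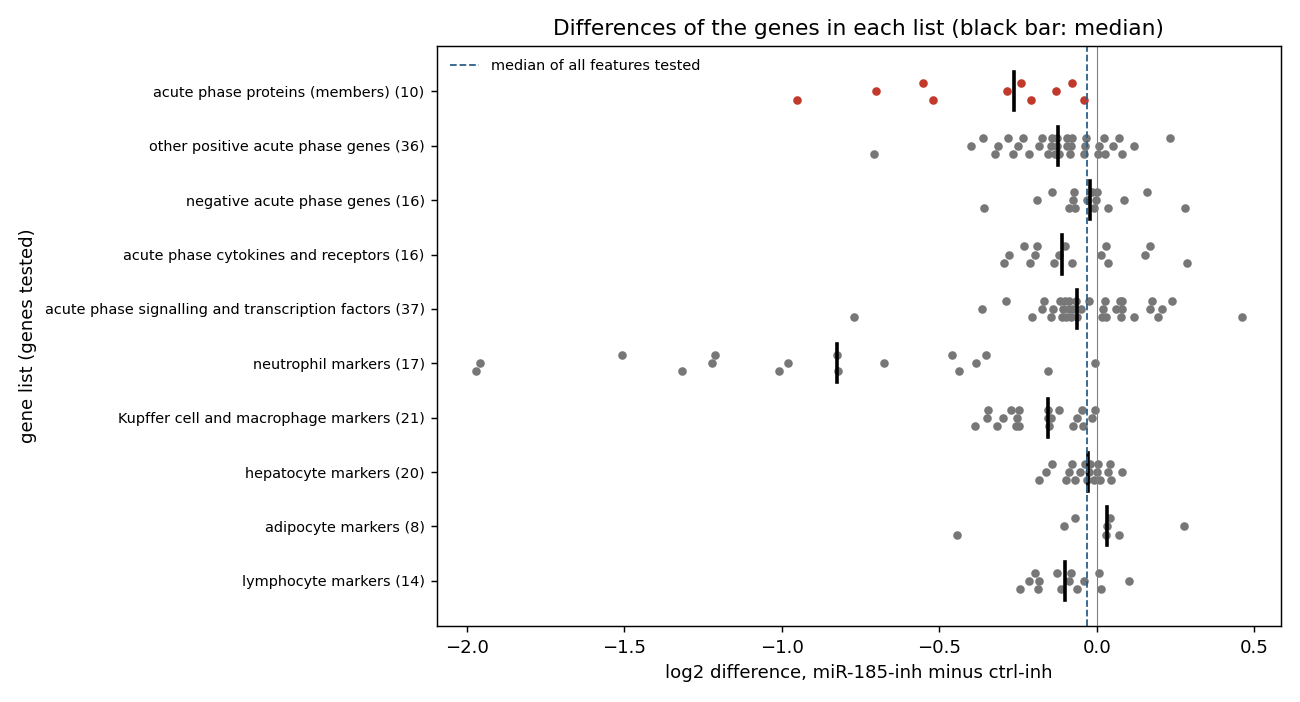
Log2 difference, miR-185-inh minus ctrl-inh, of each tested gene in the 10 lists, with the list median as a black bar and the median of all features as a dashed line. The 10 acute phase genes have a median of -0.26, and the neutrophil markers reach farthest below 0, with a median of -0.83.

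Among 15146 named features outside the set, the genes whose values went most closely with the mean of Saa1 and Saa2 over the 16 arrays, after centring each group, were Tnfrsf1a (r = 0.927), Slc4a3 (0.916), Krtap11-1 (0.903), Fam25c (0.90) and C8a (0.894). Tnfrsf1a encodes a receptor of tumour necrosis factor, and C8a a chain of complement component 8. Tnfrsf1a averaged 3.26 in miR-185-inh and 3.24 in ctrl-inh livers, a log2 difference of 0.028 (adjusted p = 0.882, limma). Another probe of the gene, likewise detected on all 16 arrays, had a log2 difference of -0.18. Haus6 (-0.871), Bmpr1a (-0.866) and Dstyk (-0.851) went most in the opposite sense. Closest to Lcn2 were Slc4a3 (0.964), Lrrc75a (0.934), Kcnk15 (0.917), Mark4 (0.891) and Lbp (0.885), with Mark4 well above background on 6 of 8 ctrl-inh arrays. These r values are the extremes of many, share their arrays with the genes they are set against, and are given with no test.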

How the data were processed

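Liver RNA of 8 miR-185-inh and 8 ctrl-inh samples was measured, groups and mouse numbers being taken from the labels. Per the labels' protocols, 0.5 µg of RNA went into each Cy3 labelling. The deposited scanner files give a processed intensity for each spot, background-corrected by Feature Extraction 11.5.1.1, per the file headers, while version 9.1 of Agilent Feature Extraction is named per the submitters' processing notes. The authors' deposited value table holds log2 values. A column of it differs from log2 of that array's processed intensity by a constant, so genes were not centred and the direction is settled, while the basis of the constant remains unknown. Column medians lay between -1.30 and -1.22.

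For this work the processed intensity was put on a log2 scale and the 75th percentile of all non-control spots of the array subtracted. Spots marked as outliers were dropped, replicate spots of a probe were averaged, and probes well above background on at least 8 of 16 arrays were kept, a gene being represented by its brightest probe. Of 55681 probes 26762 were named by matching unversioned accessions to RefSeq (GRCm38.p6). The array grid is on another build, so no probe coordinates are given.

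The comparison of groups used limma 3.58.1 (R 4.3.3), two-sided, with Benjamini-Hochberg adjustment over 25789 features at a threshold of 0.05. Single genes had an exact permutation test of group means (numpy 2.4.6), and scipy 1.17.1 gave the ranks for Spearman rho. The fit was tested on simulated data. Correlations used all 40320 pairings of 8 arrays, or 5040 of 7, and were adjusted over 90 relations between the 10 genes and 80 with marker scores.

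The 10 genes and the 9 other lists were chosen with earlier results of these data known. Besides the 10 genes and Apoe, the text names up to 4 called genes of each list by smallest p, or 2 where none was called, and 5, 5 and 3 genes by likeness to Saa1 and Saa2, to Lcn2, and in the opposite sense. Alternatives were normexp (offset 50) on the median spot and local background intensity, quantile normalization, the percentile of only those probes detected everywhere, the deposited table, no filter or a stricter filter on dim probes, averaged probes per gene, eBayes with trend, array weights, slide position, a replicate block and leaving out each array. Each slide holds 1 group, so slide could not be a block.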

Additional observations from a re-analysis of the deposited data

Results flagged for a closer look

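A single liver lay far from the rest of its group in 3 of the 20 combinations of gene and group, by the gap of the highest or lowest value to its neighbour relative to the whole range. Chance gives about 1 in 20 for unrelated combinations. These genes went together across livers, and Saa3 and Lcn2 were flagged in the same liver, so the 3 cannot be weighed against that rate. Saa3 was at 4.56 in miR-185-inh mouse 9, where the next liver of that group was at 3.0. Lcn2 was at 5.20 in the same liver, with the next at 3.41. Saa4 was at 4.62 in ctrl-inh mouse 12, with the next liver of that group at 4.16.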

How the results depend on the processing

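The differences of Lcn2, Steap4, Orm1, Orm2 and Saa1 stayed below 0 under all 29 alternatives and that of Orm3 under its 28, with Lcn2 between -1.25 and -0.66, Steap4 between -0.66 and -0.37, Orm2 between -0.73 and -0.37 and Orm3 between -1.28 and -0.30. Their adjusted p ran from 0.0242 to 0.592 for Lcn2, 0.0491 to 0.609 for Steap4 and 0.0917 to 0.703 for Orm3. Hp turned above 0 with normexp (0.031), with quantile normalization (0.0067), in slide row 1 alone (0.027) and without ctrl-inh mouse 12 (0.0077), and lay between -0.084 and 0.0077 when 1 array was left out. Saa4 did so in row 1 alone (0.044), Saa3 in row 2 alone (0.34) and Saa2 with the replicate block (0.039), and for each of these the cause was not tested. The count of the 10 genes called ran from 0 to 1 over the leave-one-out fits, with Lcn2 called without miR-185-inh mouse 9 and Steap4 without ctrl-inh mouse 1. Over all features the call count was 1214, and it was 466 in slide row 2 alone and 0 in row 1 alone, where 4609 features had an unadjusted p under 0.05. It ran from 735 to 1580 when 1 array was left out, with 794 without ctrl-inh mouse 11, 786 without ctrl-inh mouse 12, 766 without miR-185-inh mouse 6 and 735 without miR-185-inh mouse 7. The replicate block over 10 mice with 5 shared numbers called 0 features (2597 at an unadjusted p under 0.05), as did the same mice without the block. Same-numbered mice correlated between -0.128 and 0.107 and none went best with its own number. With 5 shared numbers, this cannot decide whether equal numbers mark a shared origin, which the labels do not state. The share of calls that were higher was 26.4%, but 47.7% with normexp and 45.9% with quantile normalization. Normexp, quantile normalization and the detected-probe percentile called 1151, 863 and 1812 features. The neutrophil calls, 2 in all, ran from 1 to 5 when 1 array was left out. Pairs of the 10 genes past adjustment in ctrl-inh livers were 15 by Spearman rho in place of 26 by Pearson r. The median r was 0.569 without miR-185-inh mouse 9 and 0.579 without ctrl-inh mouse 12, a check added after seeing the data and running from 0.569 to 0.875 in miR-185-inh and from 0.579 to 0.867 in ctrl-inh livers. Without the 2 farthest arrays it was 0.426 in miR-185-inh and 0.494 in ctrl-inh livers. No processed signal was saturated, and genes such as Il6 and Tnf were limited by background.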
